A study of Mus musculus with 8 samples.

Results

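The genes described here are 10 members of the type 2 cytokine pathway: the receptor chains for IL-4, IL-13, IL-33 and TSLP (Il4ra, Il13ra1, Il2rg, Il1rl1, Crlf2 and Il7r), the alarmin Il33, the transcription factor Stat6 and the kinases Jak1 and Tyk2. They were chosen by name, by matching gene identifiers to mouse GENCODE M21 symbols, and all 10 were found among the 55335 genes of the count table. RNA was sequenced from vagal ganglia, where sensory neurons that supply the airways, heart and gut have their cell bodies. There were 4 pools from mice treated with HDM (usually house dust mite, a common inhaled allergen; the labels give the letters only) and 4 pools from mice treated with saline, with tissue taken 1.5 h after challenge number 4 in both groups. All animals are labelled wild type (WT), and the sources used here do not give their strain, age or sex, or the dose and route of HDM. A replicate was a pool of 6 to 8 ganglia from 3 to 4 mice, and each of 4 labelled batches held 1 HDM and 1 saline pool.

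IL-4 and IL-13 are central cytokines of allergic inflammation. IL-4 binds IL-4Rα, encoded by Il4ra, and then recruits either the common gamma chain (Il2rg) to form the type I receptor or IL-13Rα1 (Il13ra1) to form the type II receptor, which IL-13 also uses. JAK1 and TYK2 on these chains phosphorylate STAT6, which enters the nucleus and activates target genes. IL-33 and TSLP are released by barrier and stromal cells upon damage and act through ST2 (Il1rl1) with the accessory chain IL-1RAP, and through the TSLP receptor (Crlf2) with IL-7Rα (Il7r). In mouse sensory neurons of the skin, receptors of this pathway are known for their part in itch, and in airway disease the same cytokines drive eosinophilia and mucus.

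Library totals were 23.95 to 26.67 M counts for HDM pools, against 26.87 to 31.28 M for saline pools. Neuronal markers were abundant, with Uchl1 at 1503 ± 54.0 CPM (counts scaled to library size) in HDM and 1357 ± 28.3 CPM in saline (SD, n = 4 each). In bulk tissue, fewer cells of a type and less RNA per cell cannot be told apart. The summed CPM of 9 neuronal markers ran from 8299 to 8922 in HDM and from 7960 to 8149 in saline, so the groups did not overlap. Of the 9, 6 had log2 fold changes above 0 and 3 below 0, the lowest −0.17 in Scn9a. Prph, 1 of the 9, was called higher in HDM (edgeR adjusted p under 0.05), where 1.23% of all genes tested were. With the replicate number as a block 5 of 9 were called higher, where 3.01% of all genes were. After a correction for GC content the log2 fold change of Prph went from 0.26 to 0.13 (edgeR adjusted p = 0.261). That of Uchl1 went from 0.15 to 0.05 and that of Scn9a to −0.10. For 8 Schwann cell markers the sums were 2571 to 2827 in HDM and 2669 to 3276 in saline. Pmp22, 1 of the 8, was called lower in HDM (2 with the block), where 0.159% of all genes were (1.03% with the block). After the GC correction its log2 fold change was −0.22 (edgeR adjusted p = 0.154), from −0.23 before. For 8 satellite glia markers the sums were 1090 to 1176 in HDM and 1153 to 1230 in saline. HDM 4 had the highest sum of 5 sympathetic neuron markers, 856 CPM, against 315 to 362 CPM in the other HDM pools and 171 to 401 CPM in saline. Saline 1 had the highest fibroblast sum, 1060 CPM, and the highest macrophage sum, 96.9 CPM. The part of these differences in the results below was not tested, except where a value without the library is given.

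The vagal ganglia held mRNA of Il4ra and Il13ra1 at middle levels and of Jak1 and Stat6 at high levels, and very little of the common gamma chain, ST2 and IL-7Rα. Levels are compared between genes in TPM, which divides counts by gene length before scaling to a fixed total per library. Jak1 was the highest, with a median of 423 TPM over the 8 libraries (range 380 to 450), followed by Stat6 with 105 TPM (98.8 to 112). These levels lay above those of 98.4% and 90.7% of the 17618 genes tested. Il4ra had a median of 23.4 TPM (21.1 to 26.3), Il13ra1 22.1 TPM (20.6 to 25), Crlf2 22.1 TPM (15 to 25.6), Il33 15.7 TPM (11.6 to 18.4) and Tyk2 14.2 TPM (12.3 to 15.8). Neighbours in this middle stretch, from Il4ra to Tyk2, overlapped in range over the libraries, while Jak1, Stat6 and Il4ra were separated from each other. Below a gap lay Il2rg with 1.11 TPM (0.539 to 1.68), Il1rl1 with 0.262 TPM (0.187 to 0.570) and Il7r with 0.139 TPM (0.0815 to 0.371). Each of these low genes overlapped with its neighbour, and none overlapped with Tyk2.

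**Figure D1:**
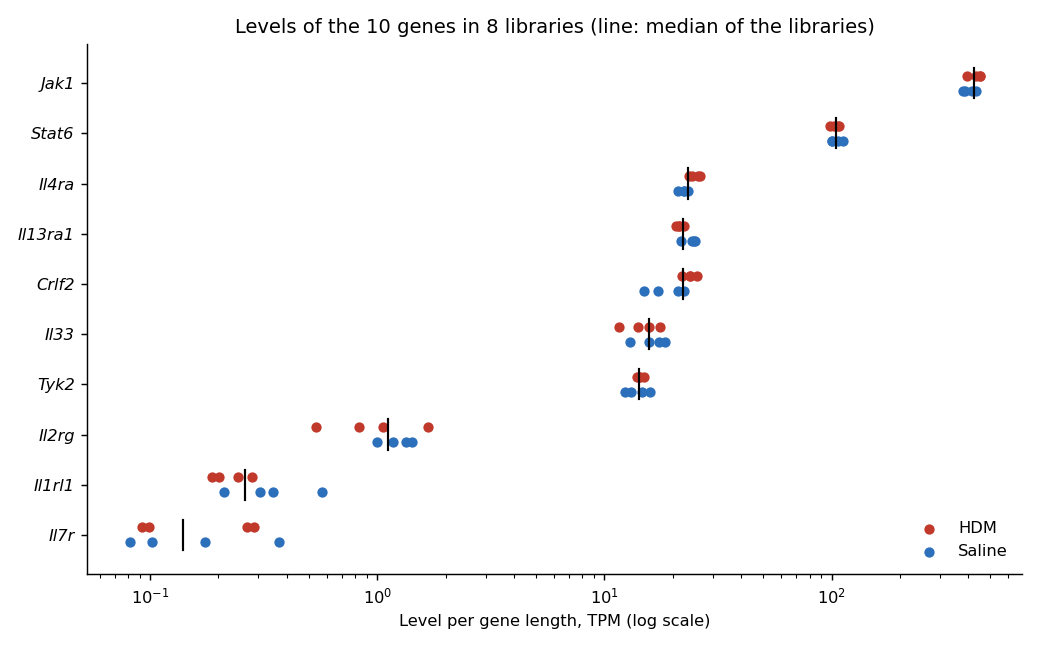
Level of each of the 10 genes in TPM (log axis) in the 4 HDM pools (upper points of each row) and the 4 saline pools (lower points), ordered by the median over the 8 libraries (line). Jak1 and Stat6 stand above the others with medians of 423 and 105 TPM, 5 genes lie between 14.2 and 23.4 TPM, and Il2rg, Il1rl1 and Il7r lie at 1.11 TPM or lower.

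Promoters were compared by their content of CG dinucleotides. The windows below run from 250 bases before to 50 bases after an annotated start (RefSeq, GRCm38.p6), read in the direction of the gene, and CG dinucleotides are in capitals. These windows are shown because IL-4Rα can pair with either of the other chains, and the partner genes Il13ra1 and Il2rg lay far apart in level.
Il4ra, chr7:125552021-125552320, plus strand: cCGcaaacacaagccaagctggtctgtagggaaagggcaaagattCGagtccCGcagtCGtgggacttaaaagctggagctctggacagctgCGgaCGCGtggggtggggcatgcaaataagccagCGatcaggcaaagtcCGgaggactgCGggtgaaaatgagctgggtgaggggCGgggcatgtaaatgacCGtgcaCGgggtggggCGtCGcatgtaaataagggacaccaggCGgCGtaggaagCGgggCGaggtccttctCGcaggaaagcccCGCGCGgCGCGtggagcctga
Il13ra1, chrX:36111858-36112157, plus strand: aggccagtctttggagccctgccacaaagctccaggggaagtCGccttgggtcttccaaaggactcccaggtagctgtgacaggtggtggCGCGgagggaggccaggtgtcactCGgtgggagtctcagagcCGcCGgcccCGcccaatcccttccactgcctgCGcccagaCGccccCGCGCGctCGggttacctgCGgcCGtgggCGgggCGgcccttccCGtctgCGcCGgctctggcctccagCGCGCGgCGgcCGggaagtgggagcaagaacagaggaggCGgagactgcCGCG
Il2rg, chrX:101268206-101268505, minus strand: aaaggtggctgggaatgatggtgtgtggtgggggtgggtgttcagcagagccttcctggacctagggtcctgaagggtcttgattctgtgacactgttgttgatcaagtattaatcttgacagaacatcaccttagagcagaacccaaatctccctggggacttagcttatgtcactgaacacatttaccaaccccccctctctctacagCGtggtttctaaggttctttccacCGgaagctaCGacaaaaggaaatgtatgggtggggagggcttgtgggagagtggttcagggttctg
The Il4ra window holds 25 CG dinucleotides and that of Il13ra1 28, while the Il2rg window holds 3. Over all 32851 promoters of the RefSeq table the median was 7, with quartiles of 3 and 20. The windows of Jak1, Crlf2 and Tyk2 hold 29, 31 and 23, and that of Stat6 holds 8. Il33 has 2 annotated starts, with 6 and 5, and Il1rl1 also has 2, with 1 and 3. Il7r holds 1. The 3 genes with the lowest levels thus had promoters with 1 to 3 CG dinucleotides. This is a description of 10 genes, with no test.

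Palindromic STAT sites were searched in the same 12 windows on both strands, as TTCNNNNGAA, the spacing that STAT6 prefers, and as TTCNNNGAA, the spacing of other STAT proteins. The longer form was found in 1 window, that of the upstream start of Il33, 36 bases before the start, and the shorter form in 1, that of Il7r, 142 bases before the start. Of all 32851 promoters, 6.95% hold the longer form and 8.30% the shorter. Neither form was present in the other windows, which says only that these letters do not occur there. The Il33 window is shown because it is the site nearest to a start among these genes, with the match in capitals.
Il33 upstream start, chr19:29924863-29925162, plus strand: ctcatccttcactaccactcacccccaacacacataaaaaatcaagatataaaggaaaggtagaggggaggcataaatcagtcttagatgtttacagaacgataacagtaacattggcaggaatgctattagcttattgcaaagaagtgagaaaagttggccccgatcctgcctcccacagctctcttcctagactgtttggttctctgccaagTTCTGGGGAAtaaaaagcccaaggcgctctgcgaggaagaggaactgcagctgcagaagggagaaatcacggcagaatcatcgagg

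The comparison of HDM with saline asked which of these transcripts differ in the ganglia 1.5 h after challenge number 4. Effects of this challenge and of earlier ones cannot be told apart. None of the 9 members tested passed at an adjusted p under 0.05 in edgeR's quasi-likelihood test, where 1.38% of all 17618 genes did. On the higher side 0 members and 1.23% of all genes passed, and on the lower side 0 members and 0.159% of all genes. With the replicate number as a block 0 members passed as well, where 4.05% of all genes did (3.01% higher and 1.03% lower in HDM). At an unadjusted p under 0.05 there were 3 in edgeR, Il4ra and Crlf2 on the higher side and Il13ra1 on the lower side, and 3 members each in DESeq2 and limma-voom. Of all genes, 18.1% reached that level in edgeR, 16.8% in DESeq2 and 18% in limma-voom. The median log2 fold change of the 9 was −0.03, beside −0.01 for all genes tested. Il4ra was the 1 member whose HDM and saline pools did not overlap, a separation seen in 10.6% of all genes tested (6.25% with HDM higher and 4.39% with HDM lower).

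**Figure D2:**
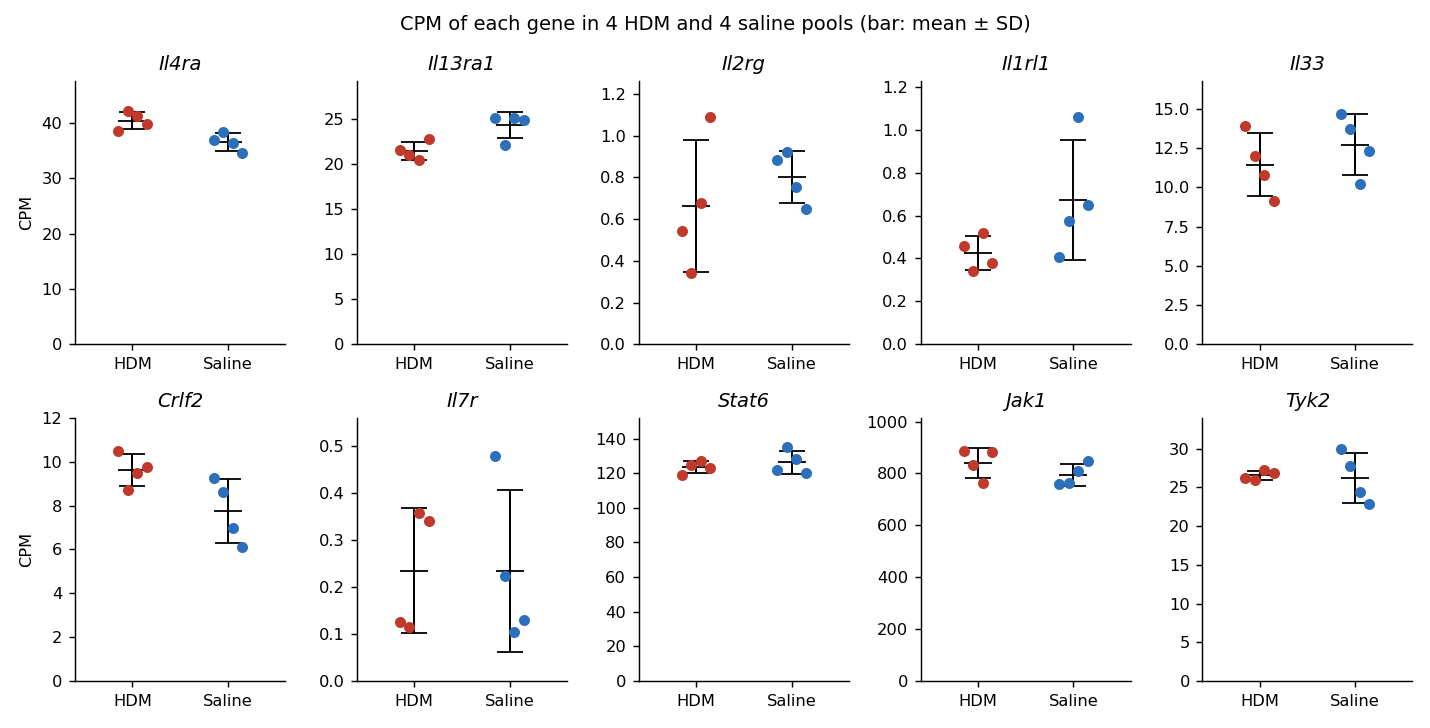
CPM of each of the 10 genes in 4 HDM pools and 4 saline pools (points, in replicate order from left to right within a group), with the mean ± SD in black and every axis starting at 0. Il4ra is the panel in which the groups do not overlap, with HDM at 38.5 to 42.1 CPM and saline at 34.5 to 38.4 CPM.

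Il4ra (ENSMUSG00000030748, GRCm38 chromosome 7, 125552120 to 125579474, plus strand) encodes the signalling chain shared by the IL-4 and IL-13 receptors. It had 38.5, 42.1, 41.3 and 39.8 CPM in HDM pools 1 to 4, against 37.0, 38.4, 36.4 and 34.5 CPM in saline pools 1 to 4. The lowest HDM pool and the highest saline pool differed by little. HDM was higher within 4 of 4 batches, by 0.06 to 0.21 on the log2 scale, which follows for any pairing where the groups do not overlap. The mean was 40.5 ± 1.59 CPM in HDM and 36.6 ± 1.63 CPM in saline (SD, n = 4 each), 1.11-fold with a 95% interval of 1.02 to 1.19 (log2 fold change 0.15, SE 0.0517). The edgeR p was 0.0141 before and 0.163 after adjustment. The longest Il4ra transcript has a GC content of 55.8%, and after a correction for GC content the log2 fold change was 0.06 (SE 0.0486, edgeR adjusted p = 0.656). A predicted gene on the opposite strand overlaps Il4ra, and without the strand setting reads of the pair cannot be told apart.

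Il13ra1 (ENSMUSG00000017057, chromosome X, 36112110 to 36171259, plus strand) encodes the partner chain that binds IL-13. It had 21.5, 21, 20.4 and 22.7 CPM in HDM, against 25.1, 22.1, 25.1 and 24.9 CPM in saline. The groups overlapped through saline 2, the 1 saline pool that lay below the highest HDM pool, and HDM was lower within 4 of 4 batches. The mean was 21.4 ± 0.984 CPM in HDM and 24.3 ± 1.45 CPM in saline (SD, n = 4 each), 0.88-fold with a 95% interval of 0.80 to 0.97 (log2 fold change −0.18, SE 0.064). The edgeR p was 0.0134 before and 0.159 after adjustment. The GC content of its longest transcript is 41.2%, and after the GC correction the value was −0.10 (SE 0.0619, edgeR adjusted p = 0.545).

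Since both chains make up the type II receptor, their balance within a library was also taken, as the ratio of their TPM. The ratio of Il4ra to Il13ra1 was 1.11, 1.24, 1.25 and 1.08 in HDM pools 1 to 4, against 0.912, 1.07, 0.899 and 0.856 in saline pools 1 to 4. The HDM values all lay above 1 and above the saline values, though HDM 4 and saline 2 nearly met. The mean was 1.17 ± 0.0875 in HDM and 0.935 ± 0.095 in saline (SD, n = 4 each). The ratio of Stat6 to Il4ra was 4.06 to 4.21 in HDM and 4.49 to 4.81 in saline, without overlap. Both ratios contain Il4ra, whose groups did not overlap by itself. In all other ratios formed, such as Jak1 to Tyk2, the groups overlapped. These ratios were formed after the values of the genes had been seen, the genes differ in GC content, and no test of the ratios was run.

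**Figure D3:**
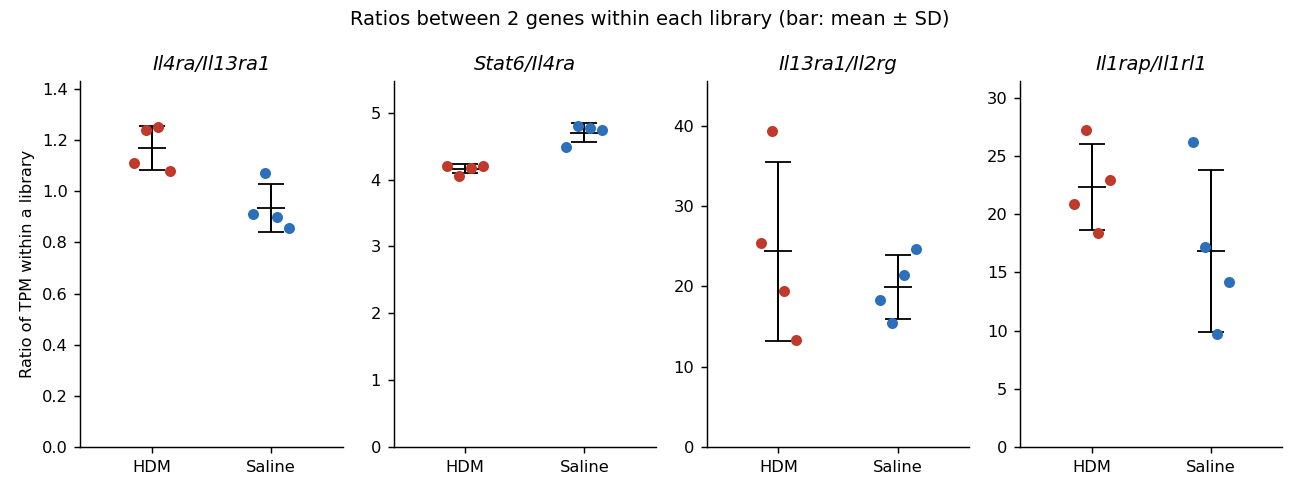
Ratio of the TPM of 2 genes within each library, in 4 HDM pools and 4 saline pools (points), with the mean ± SD in black and axes starting at 0. The ratio of Il4ra to Il13ra1 was 1.08 to 1.25 in HDM and 0.856 to 1.07 in saline, and Il13ra1 exceeded Il2rg at least 13.3 times in each library.

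Il2rg (ENSMUSG00000031304, chromosome X, 101264378 to 101268255, minus strand), whose product pairs with IL-4Rα on lymphocytes and myeloid cells and also serves other interleukins, was near the detection limit. It had 13, 9, 17 and 29 counts in HDM pools 1 to 4, or 0.544, 0.343, 0.676 and 1.09 CPM, and 24, 29, 22 and 20 counts in saline pools 1 to 4, or 0.884, 0.924, 0.752 and 0.649 CPM. HDM held both the lowest and the highest pool. The log2 fold change was −0.27 with a 95% interval of −0.95 to 0.42 (edgeR adjusted p = 0.705), and it was −0.62 without HDM 4 and −0.046 without HDM 2. Per length, Il13ra1 exceeded Il2rg 24.4 ± 11.1 times in HDM and 19.9 ± 4.00 times in saline (SD, n = 4 each). A predicted gene overlaps Il2rg on the same strand, and how reads of the overlap were counted is not given in the labels. Of 13 markers of T cells and innate lymphoid cells, which use this chain, 9 were too low to test. Cd3e had 0.196 CPM in HDM pools and 0.194 CPM in saline pools on average, and the summed CPM of the list, 457 to 493 in HDM and 444 to 479 in saline, came almost wholly from Thy1, which neurons also express (468 CPM in HDM and 448 CPM in saline). The 10 macrophage markers were all tested, and their sum ran from 60.7 to 78.6 CPM in HDM and from 59.7 to 96.9 CPM in saline.

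Il1rl1 (ENSMUSG00000026069, chromosome 1, 40429570 to 40465415, plus strand) encodes ST2, the IL-33 receptor of mast cells, type 2 lymphocytes and some stromal cells. It had 11, 9, 13 and 10 counts in HDM pools 1 to 4, against 11, 18, 31 and 20 counts in saline pools 1 to 4. In CPM, HDM ranged from 0.343 to 0.517 and saline from 0.405 to 1.06, with the highest value in saline 3 and an overlap through saline 1. The log2 fold change was −0.67 with a 95% interval of −1.39 to 0.06 (edgeR adjusted p = 0.316), and −0.36 without saline 3. Of 8 mast cell markers 5 were tested, all with negative log2 fold changes between −0.97 and −0.11 and 0 past the threshold, beside Il1rl1. The tryptase Tpsb2 had 0.305 CPM in HDM pools and 0.603 CPM in saline pools. The sum of the mast cell list, 77.2 to 95 CPM in HDM and 81.4 to 99.2 CPM in saline, came mostly from Kit, which neurons of sensory ganglia also express (82.4 CPM in HDM and 89.1 CPM in saline). The part of mast cells in the Il1rl1 values was not tested. Of 5 eosinophil markers 0 were tested, and Epx, eosinophil peroxidase, had 0 counts in the 8 libraries. The table gives 1 count per gene, so the soluble and the membrane form of ST2 are not told apart.

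IL-1RAP, encoded by Il1rap, was not scarce. It had 15.3 ± 0.705 CPM in HDM pools and 16.4 ± 0.972 CPM in saline pools (SD, n = 4 each, log2 fold change −0.10, edgeR adjusted p = 0.463), and the log2 fold change was −0.03 after the GC correction. Per length it exceeded Il1rl1 18.4 to 27.2 times in HDM and 9.67 to 26.2 times in saline.

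Il33 (ENSMUSG00000024810, chromosome 19, 29925114 to 29960718, plus strand), the ligand of ST2, is stored in the nucleus of stromal, endothelial and glial cells. It had 13.9, 12.0, 10.8 and 9.10 CPM in HDM pools 1 to 4, against 14.7, 13.7, 10.2 and 12.3 CPM in saline pools 1 to 4. The groups overlapped over most of their range, and HDM was lower within 3 of 4 batches. The means were 11.5 ± 2.02 CPM in HDM and 12.7 ± 1.98 CPM in saline (SD, n = 4 each). The log2 fold change was −0.15 with a 95% interval of −0.44 to 0.13 (edgeR adjusted p = 0.576). The lowest pool was HDM 4, and without it the value was −0.056. It was −0.078 without saline 1, −0.26 without HDM 1 and −0.25 without saline 3. The 8 endothelial markers summed to 127 to 142 CPM in HDM and 115 to 169 CPM in saline. The 7 fibroblast markers summed to 756 to 812 CPM in HDM and 766 to 1060 CPM in saline. Log2 fold changes were below 0 for 4 of 8 and 6 of 7. In edgeR 0 of either list passed, where 1.38% of all genes did. With the block 1 fibroblast marker was called lower in HDM, where 1.03% of all genes were. The part of these cells in the Il33 values was not tested.

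The receptor of TSLP had an uneven supply of its chains. Crlf2 (ENSMUSG00000033467, chromosome 5, 109554709 to 109558993, minus strand) encodes the chain that binds TSLP. It had 10.5, 8.72, 9.50 and 9.74 CPM in HDM pools 1 to 4, against 9.24, 8.64, 6.98 and 6.10 CPM in saline pools 1 to 4. HDM was higher within 4 of 4 batches, but by 0.01 in batch 2 and 0.67 in batch 4 on the log2 scale, and saline 1 lay above HDM 2. The means were 9.60 ± 0.718 CPM in HDM and 7.74 ± 1.45 CPM in saline (SD, n = 4 each), 1.24-fold with a 95% interval of 1.03 to 1.50 (log2 fold change 0.31, SE 0.126). The edgeR p was 0.0266 before and 0.213 after adjustment. Its longest transcript has the highest GC content of the 9 tested genes, 65.6%, and after the GC correction the value was 0.16 (SE 0.109, edgeR adjusted p = 0.603).

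Il7r (ENSMUSG00000003882, chromosome 15, 9505788 to 9530176, minus strand), whose product is the partner chain of CRLF2 and the IL-7 receptor of lymphocytes, had 3 to 9 counts in HDM and 3 to 13 counts in saline. It did not pass the filter on low counts, which kept the other 9, and a count of 3 is the floor used here, so no fold is given. Il7r is the member for which a difference was not detectable at this depth. Per length, Crlf2 exceeded it 82.8 to 260 times in HDM and 60.2 to 212 times in saline, on few counts.

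Among the signalling parts, Jak1 (ENSMUSG00000028530, chromosome 4, 101152367 to 101265282, minus strand), the kinase of IL-4Rα and of many other cytokine receptors, had 888, 831, 763 and 882 CPM in HDM pools 1 to 4, against 760, 764, 808 and 849 CPM in saline pools 1 to 4. HDM 2 and HDM 3 lay inside the saline range. The log2 fold change was 0.08 with a 95% interval of −0.04 to 0.20 (edgeR adjusted p = 0.480), and 0.052 without HDM 1. Per length Jak1 exceeded Tyk2 30.1 ± 2.48 times in HDM and 29.3 ± 5.09 times in saline, and Jak2 14.8 ± 0.981 times in HDM and 13.1 ± 0.915 times in saline (SD, n = 4 each). It exceeded Jak3, the kinase of the common gamma chain, 51.3 to 60.1 times in HDM and 45.0 to 69.0 times in saline.

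Tyk2 (ENSMUSG00000032175, chromosome 9, 21104068 to 21131243, minus strand), the kinase of IL-13Rα1, had 25.9 to 27.3 CPM in HDM and 22.9 to 30.0 CPM in saline, with the HDM pools inside the saline range. Its means were 26.5 ± 0.609 CPM in HDM and 26.2 ± 3.24 CPM in saline (SD, n = 4 each, log2 fold change 0.02, edgeR adjusted p = 0.933). The 95% interval ran from 0.90-fold to 1.14-fold.

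Stat6 (ENSMUSG00000002147, chromosome 10, 127642986 to 127660957, plus strand) had 119, 125, 127 and 123 CPM in HDM pools 1 to 4, against 122, 135, 128 and 120 CPM in saline pools 1 to 4. The ranges overlapped, with saline 2 and saline 3 above the highest HDM pool. The log2 fold change was −0.03 and its 95% interval, 0.91-fold to 1.05-fold, was the narrowest of the 9 genes tested (SE 0.0463, edgeR adjusted p = 0.751). Phosphorylation and nuclear entry of STAT6 do not show in mRNA levels. Stat6, Jak1 and Tyk2 overlap annotated genes on the opposite strand, among them Nab2 beside Stat6, and Jak1 also overlaps a predicted gene on its own strand.

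**Figure D4:**
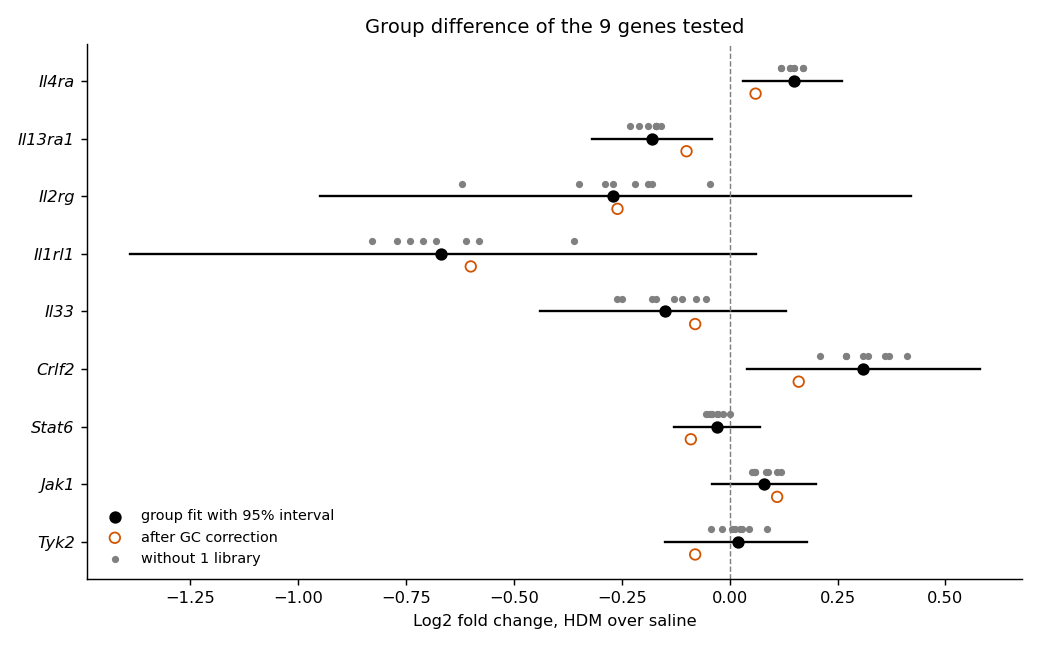
Log2 fold change of HDM over saline for the 9 genes tested, with its 95% interval (black), the value after the GC correction (open circles) and the values without each library in turn (grey). The intervals of Il4ra, Il13ra1 and Crlf2 exclude 0 before adjustment for multiple tests, the GC-corrected values of these 3 lie nearer to 0 at 0.06, −0.10 and 0.16, and the values without single libraries spread most for Il2rg and Il1rl1.

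The rest of the pathway was described by 84 genes in 5 lists, of which 61 passed the filter on low counts. Of these, 0 were higher and 0 lower in HDM in edgeR at an adjusted p under 0.05, against 1.38% of all genes, and 8 had an unadjusted p under 0.05 in edgeR, 9 in DESeq2 and 8 in limma-voom. These are 13.1%, 14.8% and 13.1% of the 61, against 18.1%, 16.8% and 18% of all genes. DESeq2 called 2 at an adjusted p under 0.05, Stat2 and Arg1, or 4.76% of the 42 to which it gave an adjusted p, against 6.94% of all genes given one. The HDM and saline pools did not overlap for 5 of the 61, 3 with HDM higher and 2 with HDM lower, which is 8.20%, against 10.6% of all genes. The median log2 fold change of the 61 was 0.02.

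Of the cytokines that engage these receptors, Il4, Il13 and Tslp were scarce in the ganglia, while Il33 had a median of 15.7 TPM. Il13 had 0 counts in the 8 libraries, which at 3 counts per library allows up to 0.096 to 0.125 CPM, a limit that covers counting error only. Il4 had 1 to 5 counts in HDM and 0 to 3 in saline, and Tslp had 0 to 5 in HDM and 1 to 4 in saline. Of the 8 ligand genes 3 were tested. Il7, the other ligand of the Il7r chain, had 5.33 ± 1.11 CPM in HDM pools and 5.41 ± 0.456 CPM in saline pools (SD, n = 4 each, log2 fold change −0.03, edgeR adjusted p = 0.948). Il5 and Il25, at under 1 CPM, had log2 fold changes of 0.41 and −0.46 (edgeR adjusted p = 0.635 and 0.532). For Il5 the value was 0.70 without saline 1, 0.20 without HDM 4, 0.22 without saline 2 and 0.23 without saline 4, and for Il25 it was −0.19 without saline 1.

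Of 17 other receptor chains and adaptors 13 were tested and 0 passed (median log2 fold change 0.09). Myd88, the adaptor of ST2, had 13.5 ± 0.451 CPM in HDM pools and 11.8 ± 1.62 CPM in saline pools (SD, n = 4 each, log2 fold change 0.19, edgeR adjusted p = 0.304). Traf6, which acts below it, had a log2 fold change of −0.10 and Il17rb, a chain of the IL-25 receptor, −0.27 (edgeR adjusted p = 0.433 and 0.352). After the GC correction Traf6 had −0.06 and Il17rb −0.27. The decoy receptor gene Il13ra2 had 1 to 12 counts and was not tested.

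Of 8 other JAK and STAT genes 7 were tested and 0 passed (median 0.05). Stat2, which carries interferon signals, had 103, 105, 97.2 and 104 CPM in HDM pools 1 to 4, against 92.1, 95.8, 90.4 and 92.4 CPM in saline pools 1 to 4. Its groups did not overlap, and the log2 fold change was 0.14 (SE 0.0422, edgeR adjusted p = 0.107, and 0.0547 with the block). Stat5a and Stat5b, which act below the IL-7 and TSLP receptors, had 0.21 and 0.09 (edgeR adjusted p = 0.256 and 0.300). Jak2 and Jak3 had −0.09 and 0.04 (edgeR adjusted p = 0.339 and 0.874). After the GC correction the log2 fold changes were 0.11 for Stat2, 0.10 for Stat5a, 0.04 for Stat5b, −0.03 for Jak2 and −0.08 for Jak3. Per length, Stat3 stood 1.16 to 1.25 times above Stat6 in HDM and 1.05 to 1.28 times in saline.

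The 21 adaptors and inhibitors were all tested and 0 passed (median 0.01). Ptpn1, a phosphatase that acts on JAK kinases, had 33.0 ± 1.14 CPM in HDM pools and 29.4 ± 0.649 CPM in saline pools (SD, n = 4 each, log2 fold change 0.17, edgeR adjusted p = 0.106). Ptpn11, the phosphatase SHP-2, had 0.11 and Pias4, of the family of STAT inhibitors, 0.17 (edgeR adjusted p = 0.178 and 0.210). The GC-corrected values were 0.09 for Ptpn1, 0.10 for Ptpn11 and 0.04 for Pias4. The groups did not overlap for 4 of the 21, Ptpn1 and Ptpn11 with HDM higher and Irs1 and Pias1 with HDM lower. Such a separation was seen in 5 of the 61 pathway genes tested (8.20%) and in 10.6% of all genes tested (6.25% with HDM higher and 4.39% with HDM lower). The share within this list was above both, on 4 genes, and was not tested. Irs1, an adaptor of the IL-4 and insulin receptors, had 10.2 to 11.3 CPM in HDM and 11.7 to 12.6 CPM in saline (log2 fold change −0.15, edgeR adjusted p = 0.320, and −0.16 after the GC correction). Pias1 had 58.0 to 64.2 CPM in HDM and 64.5 to 68.1 CPM in saline (log2 fold change −0.10, edgeR adjusted p = 0.267, and −0.03 after the GC correction). Socs1 and Cish, feedback inhibitors that cytokine signals are known to induce, differed by less than the spread between pools. Socs1 had 0.788 ± 0.235 CPM in HDM pools and 0.825 ± 0.245 CPM in saline pools, and Cish had 10.2 ± 0.642 CPM in HDM pools and 10.1 ± 1.26 CPM in saline pools (SD, n = 4 each). Socs3 had 4.35, 4.07, 6.48 and 5.74 CPM in HDM pools 1 to 4, against 3.97 to 4.56 CPM in saline (log2 fold change 0.29, edgeR adjusted p = 0.327). The value was 0.17 after the GC correction and 0.16 without HDM 3. HDM 3 and HDM 4 were the high pools, and the other HDM pools lay inside the saline range.

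Of 30 STAT6 target genes, most of them known from mouse macrophages and lymphocytes, 17 were tested and 0 passed (median −0.06). Arg1, arginase 1, had 6.57, 6.24, 6.00 and 10.3 CPM in HDM pools 1 to 4, against 4.79, 6.09, 4.99 and 3.99 CPM in saline pools 1 to 4. HDM was higher within 4 of 4 batches, and the groups overlapped through HDM 3 and saline 2. The log2 fold change was 0.55 (SE 0.177, edgeR adjusted p = 0.128) and 0.34 without HDM 4. Gata3, a regulator of type 2 lymphocytes and also of sympathetic neurons, had 3.59 CPM in HDM 4, the pool with the highest sympathetic markers, against 1.1 to 1.55 CPM in the other HDM pools and 0.736 to 1.33 CPM in saline. Its log2 fold change was 0.75, and 0.20 without HDM 4 (edgeR adjusted p = 0.280 with all libraries), and the part of sympathetic neurons in it was not tested further. Klf4 had 5.79 to 7.47 CPM in HDM and 6.49 to 11.8 CPM in saline, with the highest value in saline 1. Its log2 fold change was −0.36 (edgeR adjusted p = 0.275), and −0.15 without saline 1. The GC-corrected values were 0.58 for Arg1, 0.75 for Gata3 and −0.43 for Klf4. Among classical marks of macrophages exposed to IL-4, Mrc1, the mannose receptor, had 14.8 ± 1.90 CPM in HDM pools and 14.4 ± 1.04 CPM in saline pools (SD, n = 4 each, log2 fold change 0.04, edgeR adjusted p = 0.863). Mgl2, a lectin, had 1.89 ± 0.446 CPM in HDM pools and 2.31 ± 0.361 CPM in saline pools (SD, n = 4 each, log2 fold change −0.29, edgeR adjusted p = 0.457). Chil3, Retnla, Ccl17 and Ccl24 were too low to test.

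**Figure D5:**
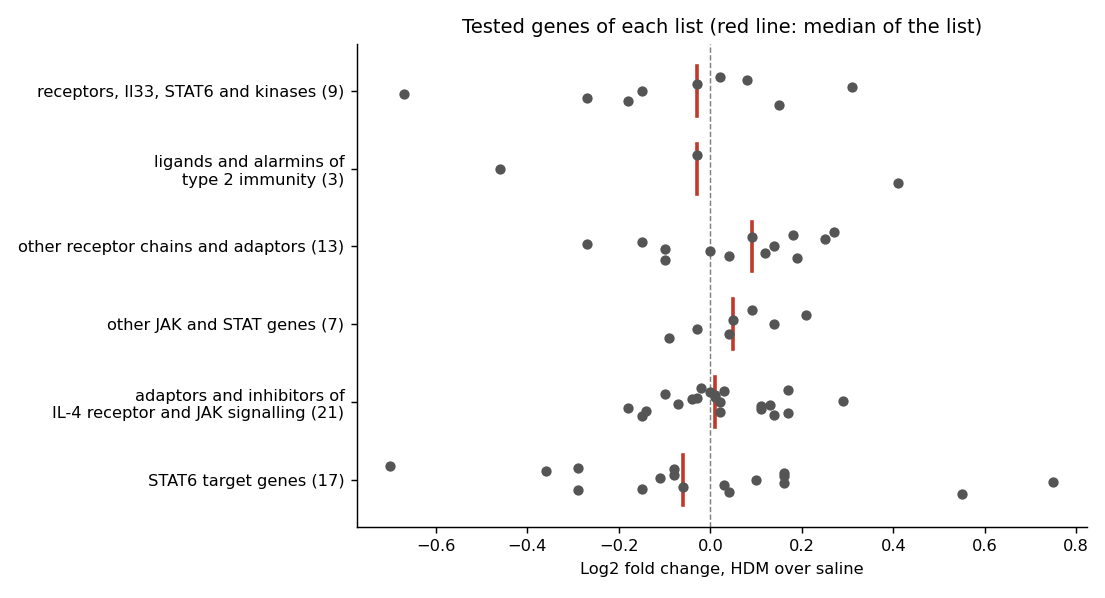
Log2 fold change of HDM over saline for each tested gene (points) of the receptor, Il33, STAT6 and kinase genes and of the 5 pathway lists, with the number of tested genes in brackets and the list median as a red line. The medians lie between −0.06 and 0.09, and no gene shown passed the threshold in edgeR.

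The genes whose profile over the 8 libraries was most like that of Il4ra were Ankrd13b, Maz and Mpc2, with root mean square differences of 0.0189, 0.0265 and 0.0279 in centred log2 CPM, where Il4ra itself had a spread of 0.0898. Ankrd13b had 62.2 CPM in HDM pools and 55.9 CPM in saline pools on average. For Il13ra1, with a spread of 0.113, they were Klhl13, Tmem168 and Tmem97, with 0.0331, 0.0382 and 0.0463. Klhl13 had 37.3 CPM in HDM pools and 41.6 CPM in saline pools. These are the nearest of 11458 genes at 5 CPM or more. They were picked for their likeness over the same 8 libraries, so their like group differences follow from the choice. How near a gene would come by chance was not tested.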

How the data were processed

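RNA of vagal ganglia was sequenced, per the labels' protocols, from Illumina stranded mRNA libraries with paired 50 bp reads. The deposited table holds unnormalised whole-number counts, 1 per gene and library. They were made with featureCounts on GRCm38 (mm10), per the submitters' processing notes. For aligner, versions and strand setting: not given in the sources used here. The file headers name 1 merged alignment file per library and also give the gene length used for TPM. Of 55335 genes, 55154 had a symbol in GENCODE M21 and 54899 had the same span there.

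Library totals were 23.95 to 31.28 M counts. A count of 0 allows up to 3 counts, and intervals and floors cover counting error only. filterByExpr of edgeR 4.0.16 (R 4.3.3) kept 17618 genes. The quasi-likelihood test of edgeR compared HDM with saline on these counts, using TMM factors and no term besides group, and p-values were adjusted over all genes tested (Benjamini-Hochberg). On simulated data of this comparison, in which 200 genes were changed 1.5-fold and 17404 genes were tested, 129 changed genes were recovered, 66.2% of those that were tested, with 10 false calls. Smaller changes, such as the 1.11-fold of Il4ra and the 1.24-fold of Crlf2, were not simulated, nor was an effect of batch or GC content. The alternatives were DESeq2 1.42.0, its size factors, limma-voom 3.58.1, other filters, the replicate block, a GC correction (natural spline with 4 degrees of freedom on the GC content of the longest transcript, fitted above a mean log2 CPM of 3) and leaving out each library. The replicate numbers equal the labelled batches, so the pairing rests on the labels. Libraries with the same number showed little tendency to vary alike over 13731 genes. Their correlations were −0.0051, −0.029, 0.12 and −0.052 for numbers 1 to 4, and 1 of 8 libraries correlated best with its own number.

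Members and lists were chosen with earlier results of these data known. Named genes are the 10 members, of each pathway list the 3 with the smallest p, 10 genes of interest, and the 3 genes most like Il4ra and Il13ra1. Uchl1, Prph, Scn9a, Pmp22, Epx, Cd3e, Thy1, Tpsb2, Kit, Il13ra2, Stat3, Fn1, Irs1, Pias1, Mrc1, Mgl2 and the untested STAT6 targets were named after their values were seen. Pools of animals are the replicates. Promoter sequences come from RefSeq (GRCm38.p6), where the 10 members matched by symbol.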

Additional observations from a re-analysis of the deposited data

Results flagged for a closer look

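In 92 groups of 4 pools (the members, the named pathway genes and the 12 marker sums), 7 had a pool far from the other 3 by Dixon's test, and chance flags about 1 group in 20. Il13ra1 was lowest among saline pools in saline 2, with 22.1 CPM. Arg1 was highest among HDM pools in HDM 4, with 10.3 CPM, where the summed sympathetic neuron markers were also highest, with 856 CPM. Il25 was lowest among HDM pools in HDM 1, with 0.251 CPM. The summed fibroblast markers were highest among HDM pools in HDM 3, with 812 CPM. In saline 1 the sums of B cell markers (2.21 CPM) and neutrophil markers (5.67 CPM) were the highest among saline pools.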

How the results depend on the processing

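None of the 9 members tested passed in any of the 16 alternatives (Il2rg and Il1rl1 got no adjusted p in DESeq2 and fell below the filter of 1 CPM in 4 libraries), and those at an unadjusted p under 0.05 numbered 0 after the GC correction, 1 with the replicate block and GC correction together, and 2 to 4 in the others. The count of all genes called, 244, was 722 without a filter, 843 in DESeq2, 713 with the replicate block, 0 after the GC correction (edgeR; unadjusted p under 0.05 for 2051), and 29 with replicate block and GC correction. Without single libraries it ran from 0 (without HDM 1, HDM 2 or saline 3, with 2434, 2443 and 2369 at an unadjusted p under 0.05) to 383, and was 61 without HDM 4 and 98 without saline 2. The count of pathway genes called, 0, was 2 without a filter (Arg1 and Fn1, edgeR adjusted p = 0.023 and 0.0306) and 2 in DESeq2 (Stat2 and Arg1, adjusted p = 0.0496 and 0.0403). The cause of these shifts was not tested. The replicate block changed no call of a member or pathway gene. Some small log2 fold changes turned sign, none past the threshold. Under the GC correction alone and together with the replicate block, Tyk2 had −0.078 and −0.075, Il7 0.059 and 0.043, Jak3 −0.084 and −0.077, and Cish −0.035 and −0.030. Without single libraries the values ran from −0.055 to 0.00081 for Stat6, −0.043 to 0.087 for Tyk2, −0.14 to 0.099 for Il7, −0.031 to 0.14 for Jak3, −0.23 to 0.11 for Socs1 and −0.054 to 0.07 for Cish. Depth limits Il7r, Il1rl1 and Il2rg, which had 3 to 13, 9 to 31 and 9 to 29 counts.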
